A study of Mus musculus with 11 samples.

Results

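A set of 10 genes that carry, restrain or read out the signal of transforming growth factor beta (TGF-β) inside a cell were followed in mouse microglia, the resident macrophages of the brain. They were the signal transducers Smad2, Smad3 and Smad4, the inhibitory Smad6 and Smad7, the nuclear co-repressors Ski, Skil and Tgif1, the secreted TGF-β target Tgfbi and the latent TGF-β anchor Nrros. The genes were chosen by name, with earlier results of these data known. Each was located on the array by matching the RefSeq transcript assigned to a probe to its current symbol. Of the 10 genes, 9 had a matched probe and were tested, among 19555 genes tested in all. Smad4 was not analysed here.

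The study asked how far microglia lose their brain phenotype in culture and whether cytokines of the brain environment bring it back. All cells came from C57BL/6N mice and were profiled on 11 one-colour arrays. Microglia sorted by fluorescence for intermediate CD45 and high CX3CR1 were lysed at once, either from adult females aged 12 to 24 weeks (A_FACS, n = 2) or from newborns of both sexes at postnatal day 1 to 3 (NB_FACS, n = 3). Cultured newborn microglia grew for weeks in flasks seeded with several pooled brains, in medium with serum. They were fed with 20% medium conditioned by L-929 fibroblasts and were shaken off. They then spent 1 day in DMEM/F12 with 10% fetal bovine serum, either with nothing added (NB_Control, n = 3) or with human TGFbeta, human IL34 and CX3CL1 at 100 ng/mL each (NB_Stim, n = 3). The methods name the added TGF-β as TGF-β1, and all 3 cytokines were given together, so no value below belongs to TGF-β alone. Sorting against shaking and fresh against cultured cells cannot be told apart in these groups, nor can age and sex between the sorted groups. Culture below stands for all that separates NB_Control from NB_FACS, the weeks in flasks and the shaking included.

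TGF-β is stored in a latent form and has to be released before it binds its receptors, TGFBR2 and TGFBR1. The activated receptors phosphorylate SMAD2 and SMAD3, which join SMAD4 and enter the nucleus to regulate genes. SKI and SKIL hold SMAD complexes in a repressed state, SMAD6 and SMAD7 act against the receptors or the complex, and several of these brakes are themselves transcribed in response to the pathway, as feedback. Microglia in the living brain depend on TGF-β for their identity, and NRROS, which ties latent TGF-β1 to the myeloid cell surface, is needed for that supply.

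The values below are log2 quantile normalised signals, averaged over the probes of a gene, and a difference of 1 is a doubling. A gene was called when its limma adjusted p, corrected over all 19555 genes, lay under 0.05. The third replicate of each newborn group was hybridised on a second slide, and all other arrays, both adult ones included, on the first, so differences are also given within each slide. Between 66.8% and 80.4% of probes were well above background per array and no spot was saturated. Of 12 microglia markers 11 were tested, and Tmem119 and P2ry12 were above background on every array. Gpr34 was above background on both A_FACS arrays but on no newborn array. Slc2a5 was above background on all sorted arrays, on 2 of 3 in NB_Control and on 1 of 3 in NB_Stim. All 11 tested markers were above background throughout A_FACS, 10 throughout NB_FACS and 9 throughout each culture. The summed log2 level of the 11 tested markers was 18.28 to 18.36 in A_FACS, 17.54 to 17.68 in NB_FACS, 16.22 to 16.43 in NB_Control and 17.40 to 17.47 in NB_Stim. Summed levels of markers of other cells also differed between the groups. The 11 tested fibroblast markers summed to between 11.41 and 11.46 in NB_FACS, 15.53 and 15.89 in NB_Control, and 14.75 and 15.83 in NB_Stim. The 4 tested erythroid markers summed to between 17.04 and 17.44 in NB_FACS and between 5.80 and 6.23 in the cultures. The 5 tested oligodendrocyte lineage markers summed to between 10.39 and 10.94 in NB_Control and 13.18 and 13.62 in NB_Stim, where 1 of them, Cspg4, was called. The 11 tested border macrophage and monocyte markers summed to between 13.64 and 13.93 in NB_FACS and 15.71 and 16.55 in NB_Control, and 5 of them were called higher and 4 lower. The 6 tested endothelial markers summed to between 12.25 and 12.69 in NB_FACS, 9.95 and 10.13 in NB_Control, and 11.02 and 11.25 in NB_Stim. Between the cultures only 1 of them, Flt1, was called, at 2.78, and 3 of the 6 were higher in NB_Stim. In A_FACS the erythroid markers summed to between 12.98 and 14.56 and the fibroblast markers to between 12.85 and 13.45. The border macrophage and monocyte markers there summed to between 11.45 and 12.29, and the endothelial markers to between 12.62 and 13.64. The part of all these cells in the differences below, those between the sorted groups included, was not tested. In bulk RNA of this kind, fewer cells of a type and less RNA per cell cannot be told apart.

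**Figure D1:**
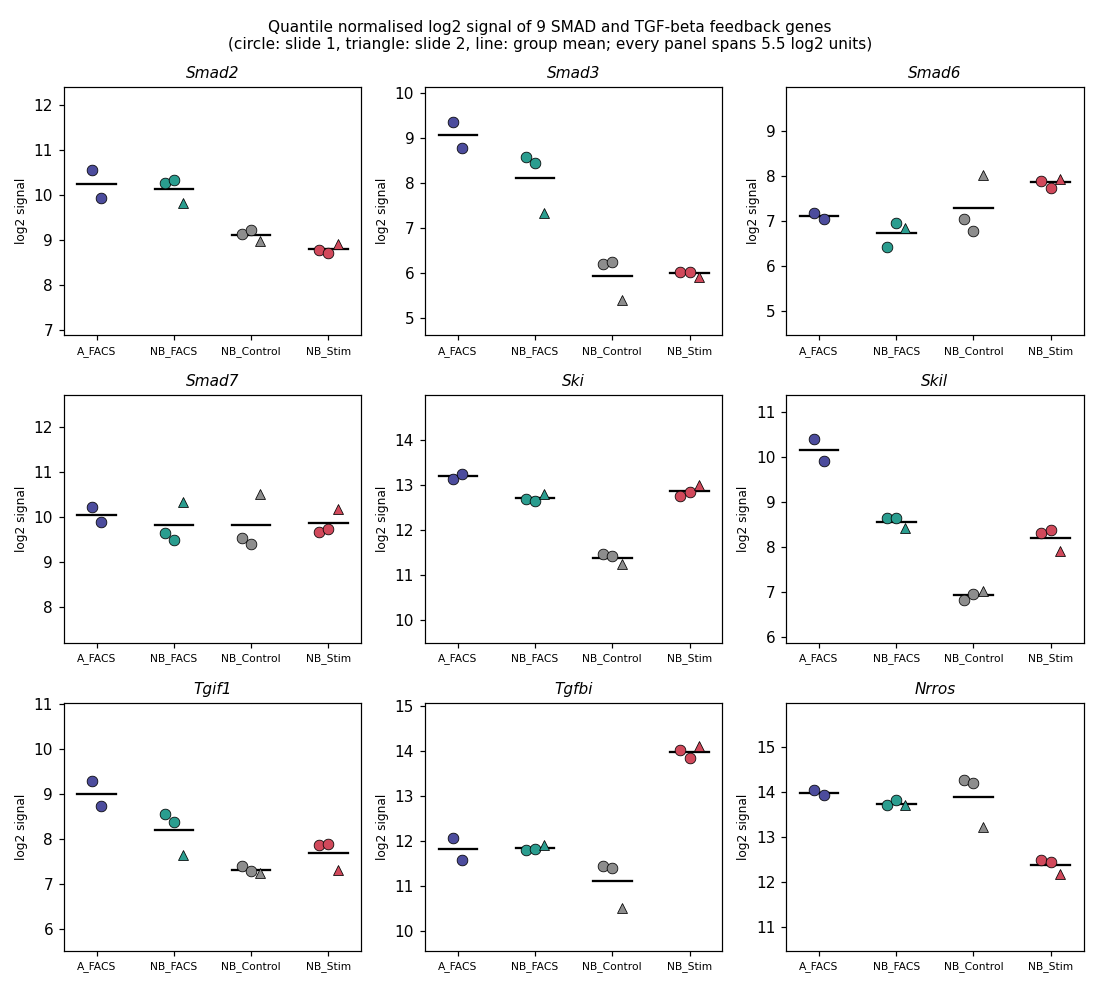
Log2 signal (y axis) of the 9 measured genes on each of the 11 arrays, by group (x axis), with circles for slide 1, triangles for slide 2 and a line at the group mean; every panel spans the same range. Ski and Skil are lowest in NB_Control, Tgfbi is highest in NB_Stim on all 3 arrays, and Nrros is lowest in NB_Stim.

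In NB_Control against NB_FACS, 6 of the 9 genes were called lower and none higher. These were Smad3, Skil, Ski, Smad2, Tgif1 and Tgfbi, whereas 29.7% of all genes tested were called, 15.8% as higher and 13.9% as lower. The cytokines moved 4 of the 9. In NB_Stim against NB_Control, Tgfbi, Ski and Skil rose and Nrros fell, where 3.41% of all genes were called, 1.4% as higher and 2% as lower. Against freshly sorted newborn cells, NB_Stim differed in 5 of the 9, with Tgfbi and Smad6 higher and Smad3, Nrros and Smad2 lower, beside 31.1% of all genes called, 16% as higher and 15.1% as lower. Adult and newborn sorted cells differed in 2 of the 9, Skil and Ski, both higher in A_FACS, beside 22.7% of all genes called, 9.75% as higher and 12.9% as lower. In the moderated F test over the 4 groups, 8 of the 9 passed, all but Smad7, as did 48.8% of all genes. The median difference of the 9 genes was -0.88 with culture and 0.38 with the cytokines, against 0.09 and -0.00 over all genes. These comparisons share NB_FACS or NB_Control arrays and are therefore not independent of each other. The set was chosen with earlier results of these data known, so the shares of all genes stand beside it as a description.

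**Figure D2:**
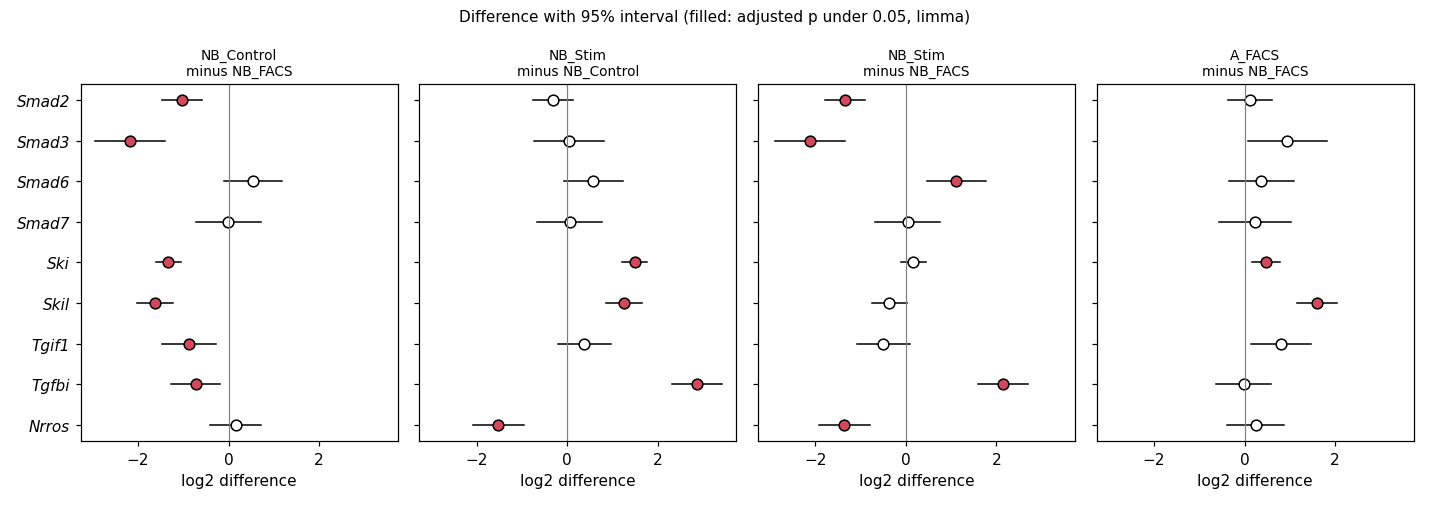
Log2 difference of each gene (y axis) in 4 comparisons, with the 95% interval from limma; filled points have an adjusted p under 0.05. The 6 filled points for culture all lie below 0, and Tgfbi is the farthest from 0 with the cytokines, at 2.87.

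Tgfbi encodes a secreted extracellular matrix protein, named for its induction by TGF-β, and it had the largest difference with the cytokines of the 9 tested genes. Its log2 signal was 12.08 and 11.58 in A_FACS, 11.81, 11.83 and 11.91 in NB_FACS, 11.44, 11.41 and 10.52 in NB_Control, and 14.03, 13.84 and 14.11 in NB_Stim. Every stimulated array therefore lay above every other array, sorted ones included, and the lowest value was the slide 2 array of NB_Control. NB_Stim exceeded NB_Control by 2.87 ± 0.24 (SE, n = 3 each, adjusted p = 2.8e-04), a 7.30-fold difference that was 2.51 within slide 1 and 3.58 within slide 2. It also exceeded NB_FACS by 2.14 ± 0.24 (adjusted p = 1.41e-04), with 2.11 and 2.19 within the slides. The lower level of NB_Control than of NB_FACS, -0.73 ± 0.24, sat at the threshold (adjusted p = 0.0485). It was -0.39 within slide 1 (adjusted p = 0.121) and -0.43 without the third NB_Control array (adjusted p = 0.106). The call was also lost without any 1 of the NB_FACS or NB_Stim arrays (adjusted p = 0.0545 to 0.108). Adult and newborn sorted cells gave a difference of -0.02 with a 95% interval of -0.63 to 0.59. The order of the groups was NB_Stim, NB_FACS, A_FACS and NB_Control, and below NB_Stim no neighbours were called different. NB_FACS lay within the range of A_FACS, whereas A_FACS and NB_Control did not overlap (0.70, adjusted p = 0.0642). Fibroblast markers, which mark cells that also make this protein, had overlapping summed levels in NB_Control and NB_Stim, and 2 of 11 were called, both lower with the cytokines. The summed level of 11 border macrophage and monocyte markers fell from between 15.71 and 16.55 in NB_Control to between 14.37 and 15.10 in NB_Stim. The part of these in the Tgfbi difference was not tested.

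The 250 bases before the annotated starts of Tgfbi, Ski and Nrros are shown because these genes, together with Skil, moved with the cytokines. Sequences are from RefSeq on GRCm38.p6, read 5′ to 3′ on the gene's strand, and 6 of the 10 genes had such an entry. Capitals mark matches to CAGAC, the SMAD-binding element, or GGCGCC, a GC-rich SMAD element, on either strand (CAGAC reads GTCTG on the other). The 8-letter palindrome GTCTAGAC and the AP-1 site TGANTCA were also searched, and none of these 4 motifs holds another.
Tgfbi, chr13:56609336-56609585, plus strand: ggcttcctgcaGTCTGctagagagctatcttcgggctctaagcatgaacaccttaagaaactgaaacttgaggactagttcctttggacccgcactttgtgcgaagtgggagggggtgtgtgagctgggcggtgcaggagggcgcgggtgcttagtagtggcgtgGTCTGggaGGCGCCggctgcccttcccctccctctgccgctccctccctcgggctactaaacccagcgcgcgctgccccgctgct
Ski, chr4:155222536-155222785, minus strand: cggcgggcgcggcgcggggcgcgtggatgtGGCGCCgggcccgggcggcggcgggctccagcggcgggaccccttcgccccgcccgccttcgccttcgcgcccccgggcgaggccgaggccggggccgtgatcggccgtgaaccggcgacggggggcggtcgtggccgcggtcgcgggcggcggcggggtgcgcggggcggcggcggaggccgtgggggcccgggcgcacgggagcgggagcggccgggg
Nrros, chr16:32165595-32165844, minus strand: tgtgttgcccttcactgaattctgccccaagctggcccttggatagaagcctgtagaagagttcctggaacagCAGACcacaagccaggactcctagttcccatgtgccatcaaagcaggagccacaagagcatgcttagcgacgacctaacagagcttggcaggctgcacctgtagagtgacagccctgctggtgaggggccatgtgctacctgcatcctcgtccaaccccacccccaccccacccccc
The Tgfbi window held 2 matches to CAGAC and 1 to GGCGCC, the Ski window 1 to GGCGCC and the Nrros window 1 to CAGAC. Of 32851 promoter windows of the same length, 42.2% held CAGAC, 9.59% GGCGCC, 6.75% TGANTCA and 0.167% GTCTAGAC. A match is a description of letters, not evidence of a bound site. G and C made up 87.6% of the Ski window, 62.4% of the Tgfbi window and 58.4% of the Nrros window. Tgif1, which was not called with the cytokines, has 5 windows, of which 3 held CAGAC, and none of the 4 motifs matched in the windows of Smad3 and Smad6.

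Ski, the founding member of the SMAD co-repressors, followed culture and cytokines in opposite directions. Its log2 signal was 13.15 and 13.25 in A_FACS, 12.70, 12.66 and 12.80 in NB_FACS, 11.47, 11.44 and 11.25 in NB_Control, and 12.77, 12.86 and 13.00 in NB_Stim. The 3 NB_Control arrays stood below all others, while the ranges of NB_Stim and NB_FACS overlapped. For Ski, NB_Control minus NB_FACS was -1.33 ± 0.12 (adjusted p = 4.15e-05), with -1.22 and -1.55 within the slides. The cytokines raised it by 1.49 ± 0.12 (adjusted p = 2.41e-04), a 2.81-fold difference, with 1.36 and 1.75 within the slides. Both directions held in all 22 alternatives tried, though many of these keep the same group means and could not turn a sign. The 2 calls held in all that gave an adjusted p, which slide 2 alone could not. NB_Stim and NB_FACS differed by 0.16, with a 95% interval of -0.12 to 0.44 (adjusted p = 0.363). A_FACS exceeded NB_FACS by 0.48 ± 0.14 (adjusted p = 0.0323), but this fell to 0.23 (adjusted p = 0.261) when arrays were scaled to their 75th percentile. The adult call was also lost without either adult array or without the first or second array of NB_FACS or NB_Control or the second of NB_Stim (adjusted p = 0.0504 to 0.141).

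Skil, or SnoN, the close relative of Ski that is degraded and then re-induced during TGF-β signalling, was likewise lowest in NB_Control and had its highest level in adult cells. Its log2 signal was 10.40 and 9.90 in A_FACS, 8.64, 8.63 and 8.41 in NB_FACS, 6.82, 6.96 and 7.02 in NB_Control, and 8.31, 8.36 and 7.91 in NB_Stim. No 2 of the 4 groups overlapped, from A_FACS at the top through NB_FACS and NB_Stim to NB_Control. For Skil, NB_Control minus NB_FACS was -1.63 ± 0.18 (adjusted p = 1.09e-04), with -1.74 and -1.39 within the slides. The cytokines raised it by 1.26 ± 0.18 (adjusted p = 4.23e-03), a 2.40-fold difference, with 1.45 and 0.89 within the slides. The cytokine call was lost with cultured replicates 1 and 2 averaged (1.17, adjusted p = 0.101) and with Tukey's test (adjusted p = 0.0587). The difference of NB_Stim from NB_FACS was not called (-0.36, 95% interval -0.76 to 0.03, adjusted p = 0.153). A_FACS exceeded NB_FACS by 1.59 ± 0.20 (adjusted p = 4.97e-04), a 3.02-fold difference, and that call held in all 20 alternatives tried.

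Skil was measured by 3 probes against different transcripts, whose first 30 bases are shown since the level of a gene here is a mean over them.
Skil probe 1 (brightest): aaaattgctgtggttggttgcattacatga
Skil probe 2: aaacagtgtcttacccagacgtctcacttg
Skil probe 3 (dimmest): gttcaagtcatcttgatatcaactgctaac
The brightest probe averaged 12.78 in NB_FACS, 10.92 in NB_Control and 12.41 in NB_Stim, and its rise with the cytokines was 1.49 (adjusted p = 4.51e-04). The second probe rose by 1.39 (adjusted p = 0.0104). The dimmest probe, above background on 2 of 3 NB_Control arrays, rose by 0.91 and was not called (adjusted p = 0.141). All 3 probes were higher in A_FACS than in NB_FACS, by 1.28, 1.31 and 2.19. On the second probe alone NB_Stim was below NB_FACS, by -1.08 (adjusted p = 5.33e-03), whereas the other 2 were not called there, at -0.37 and 0.36.

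Tgif1, a homeodomain protein that recruits histone deacetylases to SMAD2 and SMAD3, fell with culture on average but less firmly. Its log2 signal ranged from 8.73 to 9.29 in A_FACS, 7.65 to 8.57 in NB_FACS, 7.25 to 7.41 in NB_Control and 7.33 to 7.90 in NB_Stim. The NB_FACS arrays all lay above NB_Control, by -0.88 ± 0.26 for NB_Control minus NB_FACS (adjusted p = 0.0301), though the difference was -1.12 within slide 1 and -0.40 within slide 2. The call was lost without the first or second NB_FACS array or without any 1 of the NB_Control arrays (adjusted p = 0.0645 to 0.114). Of its 6 probes, 3 were called lower with culture, among them the brightest at -0.63 (adjusted p = 0.0262), and 1 was nearly level at -0.10 (adjusted p = 0.711). NB_Stim minus NB_FACS was -0.50 (adjusted p = 0.186), and -0.77 (adjusted p = 0.0288) without the third NB_FACS array. With the cytokines the difference of Tgif1 was 0.38 (95% interval -0.21 to 0.97, adjusted p = 0.591), and no single probe was called. A_FACS was above NB_FACS by 0.81 (adjusted p = 0.0768), which became 0.64 with an adjusted p of 0.047 when the replicate number was fitted as a block.

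**Figure D3:**
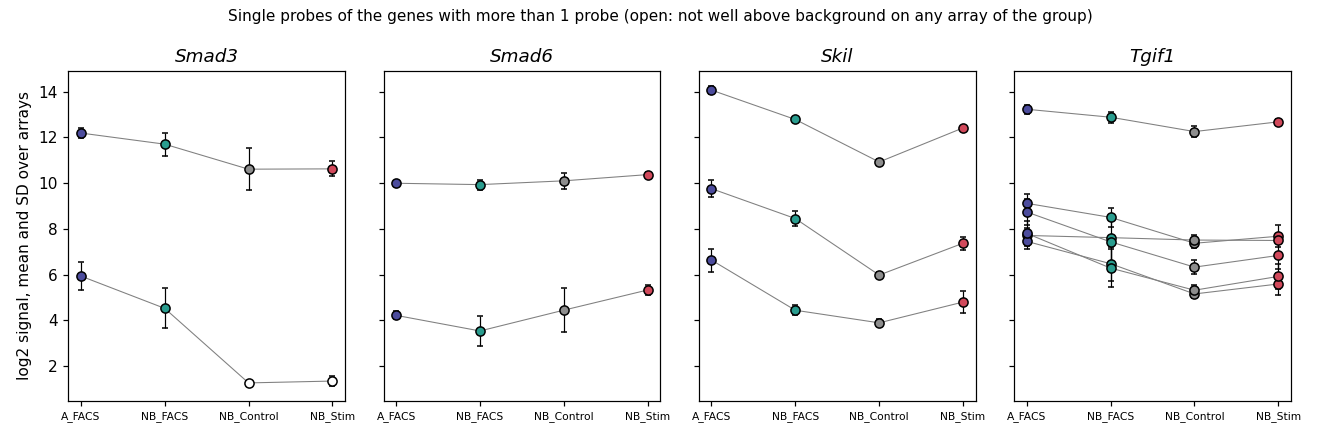
Mean log2 signal and SD over arrays (y axis) of every single probe of the 4 genes measured by more than 1, by group (x axis); open points mark a probe that was not well above background on any array of the group. The 3 Skil probes run in parallel from NB_Control to NB_Stim, and the lower Smad3 probe is open in both cultured groups.

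Nrros, which encodes the protein that holds latent TGF-β1 on microglia, was the 1 gene of the set that fell with the cytokines. Its log2 signal was 14.04 and 13.92 in A_FACS, 13.70, 13.81 and 13.70 in NB_FACS, 14.26, 14.20 and 13.21 in NB_Control, and 12.49, 12.45 and 12.17 in NB_Stim. All 3 stimulated arrays lay below all other arrays, and the slide 2 array of NB_Control stood below the other two of its group. The cytokine difference was -1.52 ± 0.25 (adjusted p = 0.0102), 2.87-fold lower, with -1.76 within slide 1 and -1.04 within slide 2. The call was lost when only the groups compared were fitted (adjusted p = 0.0674), with cultured replicates 1 and 2 averaged (-1.40, adjusted p = 0.135) and with Tukey's test (adjusted p = 0.15). NB_Stim was also below NB_FACS, by -1.36 ± 0.25 (adjusted p = 2.47e-03), with -1.28 and -1.53 within the slides. The level of NB_Control against NB_FACS depended on 1 array. It was 0.16 (adjusted p = 0.699) over all arrays but 0.50 (adjusted p = 0.0327) without the third NB_Control array, and the sign differed between the slides, at 0.48 and -0.48. The sorted groups differed by 0.24, with a 95% interval of -0.39 to 0.88.

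Smad2 and Smad3 are the receptor-activated SMADs of the TGF-β and activin branch, and both were lower in culture with or without the cytokines. For Smad2 the log2 signal was 10.57 and 9.95 in A_FACS, 10.28, 10.34 and 9.83 in NB_FACS, 9.15, 9.23 and 8.99 in NB_Control, and 8.78, 8.72 and 8.92 in NB_Stim. The sorted arrays all lay above the cultured arrays, and the stimulated arrays all lay just under the unstimulated ones. Culture lowered it by -1.03 ± 0.19 (adjusted p = 2.96e-03), with -1.12 and -0.84 within the slides, and NB_Stim was -1.34 ± 0.19 from NB_FACS (adjusted p = 6.34e-04). Both calls held in all of the 22 alternatives tried that gave an adjusted p, which slide 2 alone could not. The difference between the cultures was -0.32 (95% interval -0.75 to 0.12, adjusted p = 0.529), and that between the sorted groups 0.11 (adjusted p = 0.763).

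The Smad3 mean was 9.35 and 8.77 in A_FACS, 8.58, 8.43 and 7.32 in NB_FACS, 6.19, 6.24 and 5.39 in NB_Control, and 6.02, 6.02 and 5.91 in NB_Stim. Sorted and cultured arrays did not overlap, and within NB_FACS and NB_Control the slide 2 array was the lowest. The culture difference of the mean was -2.18 ± 0.35 (adjusted p = 1.05e-03), and NB_Stim was -2.13 ± 0.35 from NB_FACS (adjusted p = 1.2e-03). The mean joined a bright and a dim probe that disagreed in size.
Smad3 bright probe, first 30 bases: agagccgtgtcccctcttcttataaacgcc
Smad3 dim probe, first 30 bases: gtgttctaatttggatgtggctttcactct
The bright probe went from 11.70 ± 0.50 (SD, n = 3) in NB_FACS to 10.61 ± 0.91 in NB_Control, a difference of -1.09 that was not called (adjusted p = 0.0899), and to 10.62 ± 0.33 in NB_Stim (-1.08, adjusted p = 0.0905). The dim probe was not well above background on any of the 6 cultured arrays, so there it gave only a bound. Its NB_FACS mean was at least 2.13-fold higher than NB_Control and at least 2.08-fold higher than NB_Stim, against the lowest signal well above background on each array. That mean joined 5.13 and 4.93 on slide 1 with 3.52 on slide 2, which is itself close to the lowest signals well above background. The adjusted p of 2.37e-04 and 2.78e-04 belong to the measured differences, which use background values in culture, and not to these bounds. The gene-level call for Smad3 therefore rested on the dim probe. Between the cultures the mean differed by 0.05, with a 95% interval of -0.73 to 0.82, and the sign turned to -0.19 within slide 1.

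Neither inhibitory SMAD was called with the cytokines. Smad7, the classical feedback inhibitor that brings ubiquitin ligases to the TGF-β receptor, had group means of 10.05 in A_FACS, 9.82 in NB_FACS, 9.81 in NB_Control and 9.86 in NB_Stim. All 4 groups overlapped, and in the 3 newborn groups the slide 2 array was the highest, at 10.33, 10.51 and 10.18. The cytokine difference was 0.05 with a 95% interval of -0.67 to 0.77 (adjusted p = 0.973), 0.24 within slide 1 and -0.33 within slide 2.

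Smad6, which acts mainly against the bone morphogenetic protein (BMP) branch, ranged from 7.05 to 7.17 in A_FACS, 6.40 to 6.96 in NB_FACS, 6.76 to 8.02 in NB_Control and 7.73 to 7.93 in NB_Stim. The NB_Control range contained that of NB_Stim because its slide 2 array was the highest of all 11. NB_Stim exceeded NB_FACS by 1.11 ± 0.29 (adjusted p = 0.0152), with 1.13 and 1.09 within the slides, but the call rested on the dimmer of 2 probes. That probe rose by 1.79 (adjusted p = 0.0154), whereas the brighter one rose by 0.44 (adjusted p = 0.129). The dimmer probe was not well above background on every NB_FACS array, so its size includes background values in that group. Its NB_FACS values were 2.91, 4.18 and 3.52, lowest on the first array. The call was also lost without the first NB_FACS array (0.95, adjusted p = 0.0603). NB_Stim minus NB_Control was 0.58 (adjusted p = 0.403), with 0.91 within slide 1 and -0.08 within slide 2, and became 0.95 (adjusted p = 0.0382) without the third NB_Control array.

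Across the rest of the pathway, 74 other genes were listed and 61 tested. With the cytokines 5 were called, 4 higher and 1 lower, with a median difference of 0.14 over the 61, beside 3.41% of all genes called. Tgfbr1, the signalling receptor chain, rose from 5.41 to 5.67 in NB_Control to 7.25 to 7.69 in NB_Stim, by 1.92 (adjusted p = 1.2e-03), after a culture difference of -2.52. Bmpr2, the type II BMP receptor, rose by 1.04 (adjusted p = 2.15e-03). Havcr2, or TIM-3, an inhibitory receptor known as a TGF-β target in microglia, rose by 0.64 (adjusted p = 0.0292). Smurf1, a ubiquitin ligase for SMADs named here after its values were seen, rose by 0.64 (adjusted p = 0.0298). The fibrillar collagen gene Col3a1 was the 1 that fell, by -1.12 (adjusted p = 0.03). The difference of Tgfbr2, the ligand-binding receptor chain, was 0.56 (adjusted p = 0.0967), and that of the ligand gene Tgfb1 was -0.03 (adjusted p = 0.97). None of the 9 tested genes of ligands, latency and activation and none of the 7 BMP-branch SMAD and Id genes was called with the cytokines.

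**Figure D4:**
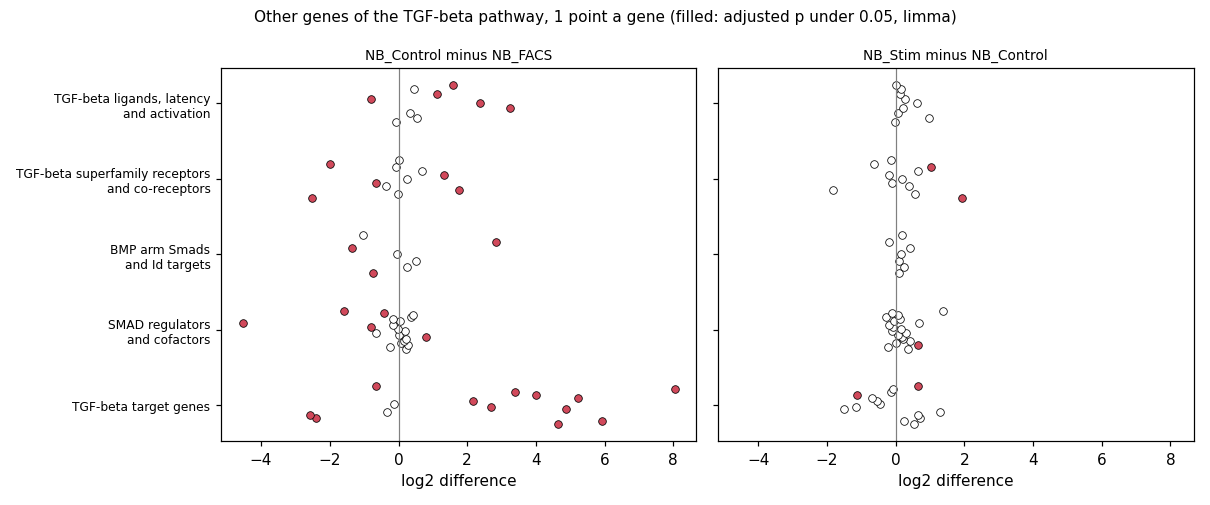
Log2 difference (x axis) of every tested gene of 5 pathway lists (y axis), 1 point a gene, for culture on the left and the cytokines on the right; filled points have an adjusted p under 0.05. With culture 12 of the 14 tested target genes were called, and with the cytokines 5 of the 61 listed genes were.

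With culture 30 of the 61 were called, 17 higher and 13 lower, with a median of 0.15, beside 29.7% of all genes called in that comparison. Among the ligand and latency genes, Ltbp3, a latent TGF-β binding protein, rose by 2.38 (adjusted p = 1.16e-03), and Ltbp4 was the 1 that fell, at -0.81 (adjusted p = 0.0212). Ltbp1 was also called higher, but only 1 of its 9 probe readings in NB_FACS was well above background, so no size is given against that group. The co-receptor gene Tgfbr3 rose by 1.77 (adjusted p = 0.0192), and Tgfbr1 was the largest fall of the receptors. Of the BMP branch, Id3, a transcriptional inhibitor, rose by 2.84 (adjusted p = 2.14e-03) and Id2 was lower by -1.36 (adjusted p = 0.0199). Of the regulators, the phosphatase gene Ppm1a rose by 0.79 (adjusted p = 0.0172), and Tgif2, the relative of Tgif1, was lower by -4.54 (adjusted p = 1.02e-06), 23.2-fold. Of the 14 tested genes of a list of TGF-β targets, drawn mostly from other cell types, 9 rose and 3 fell, led by the metalloproteinase inhibitor Timp1 at 8.04 and by Klf11, a transcription factor, at -2.57. Collagen genes stand both on this list and among the fibroblast markers, of which 8 of 11 rose over the same arrays, and the part of such cells was not tested. In NB_FACS, 4 of 6 Timp1 readings and 10 of 12 Ltbp3 readings were well above background. Sizes of these genes against that group therefore include background values.

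NB_Stim differed from NB_FACS in 31 of the 61, 23 higher and 8 lower, beside 31.1% of all genes called. With Ltbp1 left aside, Ltbp3 (3.01), Bmpr1a (1.34), Id3 (2.65), Ppm1a (0.98) and Timp1 (7.98) led the rises of their lists. The sizes for Ltbp3 and Timp1 again include background values in NB_FACS. Eng, the TGF-β co-receptor endoglin (-2.62), Smad1 (-0.62), Tgif2 (-3.86) and Klf11 (-1.93) led the falls. Between the sorted groups 18 of the 61 were called, 15 higher and 3 lower in A_FACS, beside 22.7% of all genes called. Ltbp4 (1.75), Eng (1.68), Smad1 (0.77) and Ldlrad4 (1.51) were the largest rises of their lists. Tgfbr2 was also called, at 1.26 (adjusted p = 9.15e-04). Col3a1 was at least 9.32-fold lower in A_FACS, where it was not well above background on either array.

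Over the 11 arrays, the genes whose pattern was most like that of each gene called with the cytokines were found by Pearson correlation of log2 values, given as a description since the arrays share 4 groups and 2 slides. For Ski these included Olfml3 (r = 0.99) and Ang (r = 0.98). For Skil they were Tmem135 (r = 0.99), Ncf1 (r = 0.98) and Arhgef40 (r = 0.98). For Tgfbi they were Vstm4, Bmpr2 and Ednra, all at r = 0.95, and for Nrros Dclre1c (r = 0.98), Man1a (r = 0.96) and Clec4a3 (r = 0.96). Olfml3 is on the list of microglia markers, of which 8 of 11 were lower with culture, and 4 of 11, Olfml3 among them, rose with the cytokines.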

How the data were processed

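Total RNA was labelled with Cy3, and 11 Agilent one-colour arrays were scanned with Feature Extraction 11.5.1.1. The authors deposited, per array, background-subtracted processed intensity for 62976 spots, and a value table whose 62927 entries equal it within 1e-05. The study's methods state quantile normalisation. Here, with R 4.3.3 and limma 3.58.1, outlier spots were left out, spots of a probe averaged, log2 taken and arrays quantile normalised. Of 60037 probes, 44727 passed Agilent's well-above-background flag throughout 1 group or more, and 28027 of these matched a gene symbol, giving 19555 genes, averaged over probes. Group means of all 11 arrays were fitted with lmFit and eBayes, with Benjamini-Hochberg adjustment over all genes and calls at 0.05. The number of arrays limits the precision, and intervals are at 95%. The methods call the samples independent biological replicates.

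Deviations from group means correlated at 0.11 to 0.49 in every same-numbered pair of newborn samples. The third replicates shared a slide and differently numbered pairs were not compared, so this cannot tell paired samples from a slide effect. The main fit has no block. Members, lists and tests were chosen with earlier results of these data known. Named genes were all members, the largest called rises and falls of the pathway lists, Tgfbr1, Tgfbr2, Tgfb1 and the genes most correlated with the members called with the cytokines. Some genes that this rule names are not reported here. Promoters were the RefSeq GRCm38.p6 windows, searched over 250 bases. The test was tried on simulated data with independent noise and no slide effect, shared deviation or background floor, so that trial cannot speak for the calls here. Alternatives were other scalings and background corrections, other probe filters and summaries, replicate and slide blocks, single slides, Tukey's test and leaving out each array.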

Additional observations from a re-analysis of the deposited data

How the results depend on the processing

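Of the 17 called differences of the 9 genes, none changed direction in the 370 alternatives tried, and 43 alternatives moved an adjusted p past 0.05. Many alternatives could not turn a sign, since they keep the same group means. Among them were Tukey's test and, between newborn groups, the replicate and slide blocks. Of the 19 differences that were not called, 29 of 404 alternatives turned the sign and 11 brought an adjusted p under 0.05. The 29 leave out sign turns within slide 2, which were counted for called differences only. Within slide 2 the sign also turned for Smad7 in NB_Control against NB_FACS (0.18), NB_Stim against NB_Control (-0.33) and NB_Stim against NB_FACS (-0.14). It also turned there for Smad6 in NB_Stim against NB_Control (-0.08) and Nrros in NB_Control against NB_FACS (-0.48). The cause of each change was not tested. The replicate block left the number of genes called at 6 for culture, 4 for the cytokines and 5 for NB_Stim against NB_FACS, and gave 3 in place of 2 for A_FACS against NB_FACS, through Tgif1. For culture, the call was lost in 12 of 22 alternatives for Tgfbi, 8 of 22 for Tgif1 and 3 of 22 for Smad3. For NB_Stim against NB_Control the count of 4 became 2 with cultured replicates 1 and 2 averaged and 2 with Tukey's test adjusted over genes. For NB_Stim against NB_FACS the count of 5 became 3 with the brightest probe of each gene and 3 with probes tested singly. For A_FACS against NB_FACS the count of 2 became 1 with 75th percentile scaling, 1 with only the groups compared and 1 with cultured replicates 1 and 2 averaged. Leaving out each array in turn gave 4 to 6 genes for culture, 4 to 5 for the cytokines, 4 to 6 for NB_Stim against NB_FACS, 1 to 2 for A_FACS against NB_FACS and 7 to 8 in the F test.

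Signs turned for small differences that were not called, and the ranges without 1 array are given with them. Smad7 in NB_Control against NB_FACS was 0.0269 with 75th percentile scaling, 0.000251 with normexp and 0.165 with cultured replicates averaged, and ranged from -0.36 to 0.24 without 1 array. In NB_Stim against NB_Control, Smad7 was -0.0941 with 75th percentile scaling and -0.0426 with replicates averaged (-0.16 to 0.40 without 1 array), and Smad3 was -0.0343 with normexp and -0.19 within slide 1 (-0.23 to 0.20). In NB_Stim against NB_FACS, 75th percentile scaling gave -0.0672 for Smad7 (-0.12 to 0.30 without 1 array) and -0.0764 for Ski. Nrros in NB_Control against NB_FACS was -0.0134 with replicates averaged (-0.0277 to 0.50 without 1 array). In A_FACS against NB_FACS, 75th percentile scaling gave -0.0118 for Smad2 and -0.0181 for Nrros, and slide 1 alone gave -0.0489 for Smad2 and 0.00944 for Tgfbi. Without 1 array that comparison gave -0.20 to 0.42 for Smad2 and -0.27 to 0.23 for Tgfbi. Dim probes limit Smad3, Smad6 and Skil, and 2 or 3 arrays a group limit all values.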
